A study of Mus musculus with 5 samples.

Results

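Transcripts of 10 cytosolic and mitochondrial heat shock chaperones were measured by RNA sequencing in germinal centre light zone B cells of mouse spleen. The genes were taken by name as Hsp90aa1, Hsp90ab1, Hspa8, Hspa1b, Hspa4, Hsph1, Dnaja1, Dnajb1, Hspd1 and Hspe1, and all 10 were found among the 23234 genes of the deposited table. The question was whether these transcripts differed between cells carrying floxed and wild-type alleles of Csk, a kinase that holds Src family kinases inactive by phosphorylating their C-terminal tail. Naive CD45.1/2 B cells carrying ERT2cre(KI/+), a tamoxifen-activated Cre, and B1-8hi(KI/+), a knocked-in heavy chain that makes the receptor bind the hapten NP, were given to C57BL/6J mice. Donor cells were Csk(+/+) in 3 libraries and Csk(fl/fl) in the 2 libraries labelled Csk(f/f). Hosts of both groups were immunized i.p. with NP-CGG in alum on day 0 and received tamoxifen on days 8 and 9. Donor cells that bound NP and had the light zone phenotype were sorted from the spleen on day 11. The hosts kept their own lymphocytes, from which the sort separated the donor cells, and donor cells of both groups carried the Cre and were exposed to tamoxifen. The age of the animals and the number of animals behind each library are not given in the sources used here, so the p-values measure the spread between these libraries.

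Molecular chaperones bind unfolded or partly folded proteins and use cycles of ATP hydrolysis to help them fold. HSP70 proteins take up clients delivered by J-domain proteins, nucleotide exchange factors such as the HSP110 proteins release them again, and HSP90 finishes the folding of kinases and steroid receptors. In the mitochondrial matrix, HSP60 forms a folding chamber that HSP10 closes as a lid. Stress-inducible chaperone genes are switched on by heat shock factor 1 (HSF1), which binds inverted repeats of the unit NGAAN called heat shock elements. Other members of the same families are transcribed at all times in growing cells, including B cells that have been activated.

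Promoter windows from 250 bases before to 50 bases after an annotated start were read from RefSeq on GRCm38.p6, and 7 of the 10 genes had an entry, with 12 windows in all. Pairs of inverted units (GAANNTTC or TTCNNGAA, searched on both strands, each reading the same on either) lay in 6 windows of 5 genes, namely Dnaja1, Hspa1b, Hspd1, Hspe1 and Hsph1. At least 1 of these pairs was held by 15.1% of all 32851 RefSeq windows. Runs of 3 units (GAANNTTC followed directly by NNGAA, or its reverse complement TTCNNGAA followed by NNTTC, each containing both pairs) lay in 4 windows of 3 genes, Hspd1, Hspe1 and Hsph1, against 0.603% of all windows. The 4 stretches below are shown because they hold these matches, in capitals, and come from genes that differed in level and in pattern over the libraries. The Hspa1b stretch (chr17:34959239-34959358, minus strand) and the Dnaja1 stretch (chr4:40722328-40722467, plus strand) end at the base before the start. The Dnaja1 stretch also overlaps exons of a noncoding Dnaja1 transcript and of the long noncoding RNA gene Gm6297. The Hsph1 stretch (chr5:149636287-149636316, minus strand) lies just after the start, in the 5′ UTR. The Hspe1 stretch (chr1:55088053-55088082, plus strand) lies between the start of Hspe1 and 1 start of Hspd1, which is 216 bp away on the opposite strand. A second Hspd1 transcript starts 95 bp inside Hspe1, and the stretch falls in its 5′ UTR. The same matched letters lie in the Hspe1 window and in the window of the first of these Hspd1 starts. The Hsph1 windows overlap and share their matched letters too, so the 4 windows with runs of 3 units are not 4 separate sites.
Hspa1b: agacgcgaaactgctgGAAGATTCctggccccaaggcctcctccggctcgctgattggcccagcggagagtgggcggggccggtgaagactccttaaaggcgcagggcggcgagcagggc
Dnaja1: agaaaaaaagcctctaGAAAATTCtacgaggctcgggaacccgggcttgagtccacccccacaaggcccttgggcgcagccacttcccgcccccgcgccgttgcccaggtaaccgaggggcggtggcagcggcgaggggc
Hsph1: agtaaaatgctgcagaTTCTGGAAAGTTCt
Hspe1: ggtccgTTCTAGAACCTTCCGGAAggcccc
The windows of Hspa4 and Dnajb1 held no such letters, which says nothing of whether the factor binds these genes. The window of Hspa1b and 1 of the 3 windows of Dnaja1 each held a single pair, whose first base lay at -104 and -124, the base before the start being -1.

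The values were FPKM, fragment counts scaled to the length of the transcript and to the mapped fragments of the library. Depth estimated from the steps between the lowest values ran from 9.56 to 24 M fragments, and 13291 to 14981 genes were above 0 in a library. As deposited, the level of Csk itself was not lower under the Csk(f/f) label (log2 difference 0.18, limma adjusted p = 0.439). It was 378, 436 and 415 FPKM for Csk(+/+) and 453 and 476 for Csk(f/f)-labelled libraries. After the GC correction described below the log2 difference was -0.14. The floxed exons are not named, so these gene-level values leave the deletion unchecked, and the groups are named by their labels. B cell markers summed to 13545 to 19985 FPKM per library, and the T cell list to 237 to 276, nearly all of it from Lck (105 to 122) and Cxcr5 (120 to 170), which B cells can also express. The defining T cell genes Cd3e, Cd3g and Icos were listed at 0 in every library, and Cd3d reached at most 0.412 FPKM. Csk(+/+) replicate 3 stood apart from the other libraries, with an estimated library weight of 0.259 where the others had at least 1.35, and the main values without it are given below.

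The 10 transcripts spanned from abundant to barely detected. Hspa8, the constitutive cytosolic HSP70 known as HSC70, ran from 1335 to 1717 FPKM over the 5 libraries, with a median of 1363. Hsp90ab1, the constitutive cytosolic HSP90, ran from 1163 to 1496 FPKM. Hspa8 was above Hsp90ab1 in 4 of the 5 libraries, and their ranges overlapped. These 2 genes carried 77.9% to 83.5% of the summed FPKM of the 10 in each library. Next came Hspe1, the mitochondrial HSP10 (214 to 346 FPKM), with a range apart from that of Hsp90ab1. Hsp90aa1, the inducible HSP90 (86.4 to 243), Hspd1, the mitochondrial HSP60 (81.4 to 158), and Hspa4, an HSP110 exchange factor (54.2 to 99.9), followed. Each gene from Hspe1 to Hspd1 was above the next one in 5 of 5 libraries, although the ranges of neighbours overlapped. Dnajb1, a J-domain protein of the stress response (36 to 45.7), Hsph1, a second HSP110 protein also called HSP105 (22.8 to 40.4), and Dnaja1, a constitutive J-domain protein (13.8 to 32.7), lay below Hspa4 with no overlap with it. Hspa1b, the stress-inducible HSP70, was lowest at 0.455 to 5.19 FPKM, apart from all others.

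**Figure D1:**
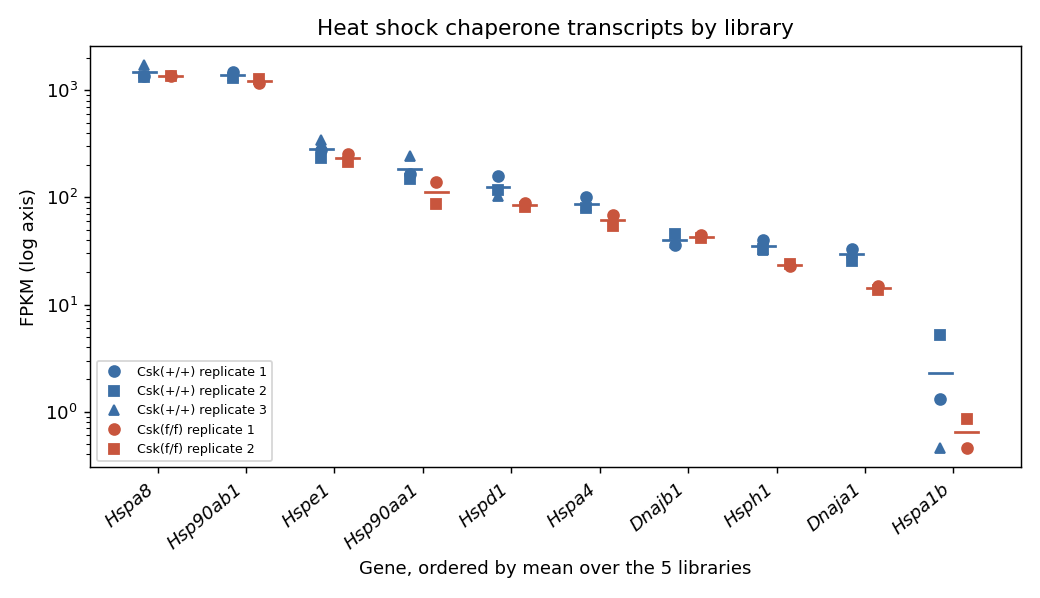
FPKM of the 10 chaperone genes (log axis) in each of the 5 libraries, ordered by mean over the libraries. Points are libraries (blue Csk(+/+), red Csk(f/f)-labelled, with marker shape for the replicate number), and short lines are group means. The red points lie below all blue points for 6 genes, among them Dnaja1 and Hsph1, and Hspa1b lies far below the other genes.

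The summed FPKM of the 10 genes was 3670, 3324 and 3965 in the Csk(+/+) group and 3160 and 3130 in the Csk(f/f)-labelled group. As a share of all FPKM in the library this was 0.581%, 0.52% and 0.519% against 0.441% and 0.463%. Both Csk(f/f)-labelled libraries thus lay below all 3 Csk(+/+) libraries on either measure. In bulk RNA, fewer cells with a transcript and less transcript per cell cannot be told apart.

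None of the 10 genes passed limma's test at an adjusted p under 0.05, a threshold that 8 of the 10242 genes tested passed (0.0781%). On the log2(FPKM + 1) scale 9 of the 10 had a lower mean in the Csk(f/f)-labelled group, where 51.3% of all tested genes did. The median log2 difference was -0.53 for the 10 genes and -0.01 for all genes tested. Both Csk(f/f)-labelled libraries were below all Csk(+/+) libraries for 6 of the 10, Hsph1, Hsp90aa1, Hsp90ab1, Hspa4, Dnaja1 and Hspd1, and 24.5% of all tested genes had that pattern. The opposite order, found for 20.7% of all tested genes, occurred for 0 of the 10, and 4 genes overlapped. At an unadjusted p under 0.05 by limma, 5 of the 10 were lower and 0 higher, beside 13.6% lower and 8.07% higher over all tested genes. The 5 were Dnaja1, Hsph1, Hspa4, Hspd1 and Hsp90aa1. All 10 genes reached the minimum of 1 FPKM in at least 2 libraries, but Hspa1b did so through 2 Csk(+/+) libraries alone, so it entered the test through the group in which it is higher.

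The HSP90 pair fold and hold signalling kinases and receptors in their active form. Hsp90aa1, the form whose transcription rises with stress, had 167, 149 and 243 FPKM in the Csk(+/+) group and 138 and 86.4 in the Csk(f/f)-labelled group. The groups did not overlap, Csk(+/+) replicate 3 being the highest and Csk(f/f) replicate 2 the lowest. The means were 186 ± 49.8 (SD, n = 3) and 112 ± 36.4 (SD, n = 2), a log2 difference of -0.73 ± 0.26 (SE, adjusted p = 0.192). Hsp90ab1, the constitutive form, had 1496, 1306 and 1372 FPKM against 1163 and 1265. These groups did not overlap either, but the gap between the nearest libraries was small. The log2 difference was -0.20 (95% CI -0.58 to 0.19, adjusted p = 0.495), from means of 1391 ± 96.6 and 1214 ± 71.6 FPKM. The longest transcripts of the pair share 76.1% of 2171 aligned bases.

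HSP70 proteins are the central client-binding chaperones of the cytosol. Hspa8 had 1363, 1335 and 1717 FPKM in the Csk(+/+) group and 1363 and 1350 in the Csk(f/f)-labelled group. Only Csk(+/+) replicate 3 stood above the rest, and the other 4 libraries lay close together. The log2 difference was -0.11 (95% CI -0.54 to 0.33, adjusted p = 0.743), and it was 0.01 without that library. Hspa1b had 1.32, 5.19 and 0.461 FPKM against 0.455 and 0.85. The single high value belonged to Csk(+/+) replicate 2, and Csk(+/+) replicate 3 lay with the Csk(f/f)-labelled libraries. The log2 difference was -0.75 ± 0.54 (SE, adjusted p = 0.418). At the estimated depths these values correspond to about 59, 289 and 15.6 fragments in the Csk(+/+) group and 30.6 and 22.8 in the others, so counting error alone is large outside replicate 2. Hspa1a, a near-identical copy whose transcript matches that of Hspa1b at 99.1% of 2200 aligned bases, had 1.28, 4.72 and 0.344 FPKM against 0.629 and 0.744. Reads from the 2 copies can be shared out between them by the authors' counting, so the level of either alone is uncertain. Red cell transcripts were also highest in Csk(+/+) replicate 2. The summed FPKM of the 7 erythroid and platelet markers was 142, 785 and 398 in the Csk(+/+) group and 382 and 102 in the others, with Hba-a1 at 552 FPKM in replicate 2. The part of red cell RNA in the Hspa1b values was not tested.

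HSP110 proteins act as nucleotide exchange factors that let HSP70 release its client. Hsph1 had 40.4, 33 and 32.1 FPKM in the Csk(+/+) group and 22.8 and 23.7 in the Csk(f/f)-labelled group. The groups were separated, with Csk(+/+) replicate 1 the highest and the Csk(f/f)-labelled values close together. The means were 35.2 ± 4.58 (SD, n = 3) and 23.3 ± 0.631 (SD, n = 2), a mean lower by 33.8%, with a log2 difference of -0.57 ± 0.15 (SE, 95% CI -0.92 to -0.22, adjusted p = 0.155). Hspa4 had 99.9, 78.9 and 82.5 FPKM against 68.2 and 54.2. Here too the groups were separated, with Csk(+/+) replicate 1 the highest. The log2 difference was -0.50 ± 0.16 (SE, adjusted p = 0.176), from means of 87.1 ± 11.3 and 61.2 ± 9.92 FPKM.

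J-domain proteins bring clients to HSP70 and stimulate its ATPase. Dnaja1 had 32.7, 25.6 and 30.2 FPKM in the Csk(+/+) group and 15 and 13.8 in the Csk(f/f)-labelled group. Every Csk(+/+) library was well above both others, and the mean of 14.4 FPKM was 51.1% below that of 29.5. The log2 difference was -0.98 ± 0.16 (SE, 95% CI -1.34 to -0.61, adjusted p = 0.128). It was the largest in size among the 10 genes at a pseudocount of 1 with all libraries and no weights, block or correction. That of Hspa1b was larger at a pseudocount of 0.1 (-1.15, against -1.02 for Dnaja1) and with the GC correction described below (-1.05 against -0.55). It was also larger with library weights (-1.14 against -0.95) and with a block for the replicate number (-1.21 against -0.96). The FPKM of Dnaja1 rested on an estimated 743 fragments in the shallowest library and 2029 or more in the other 4. Dnajb1, which is strongly induced by HSF1 in heat-shocked cells, had 36, 45.7 and 37.8 FPKM against 44.9 and 41.4. The groups overlapped, and Dnajb1 was the 1 gene of the 10 with a higher mean in the Csk(f/f)-labelled group. Its log2 difference was 0.12 (95% CI -0.23 to 0.46, adjusted p = 0.649), and its sign turned to -0.03 after the GC correction described below.

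The mitochondrial chaperonin genes Hspd1 and Hspe1 are transcribed in opposite directions from the region shown above. Hspd1 had 158, 116 and 104 FPKM in the Csk(+/+) group and 88 and 81.4 in the Csk(f/f)-labelled group. The groups did not overlap, and Csk(+/+) replicate 1 was the highest. The log2 difference was -0.55 ± 0.19 (SE, 95% CI -0.98 to -0.11, adjusted p = 0.182), from means of 126 ± 28.2 and 84.7 ± 4.63 FPKM. Hspe1 had 275, 231 and 346 FPKM against 256 and 214. Its groups overlapped, with Csk(+/+) replicate 2 between the 2 Csk(f/f)-labelled libraries, and the log2 difference was -0.26 (95% CI -0.71 to 0.19, adjusted p = 0.432).

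**Figure D2:**
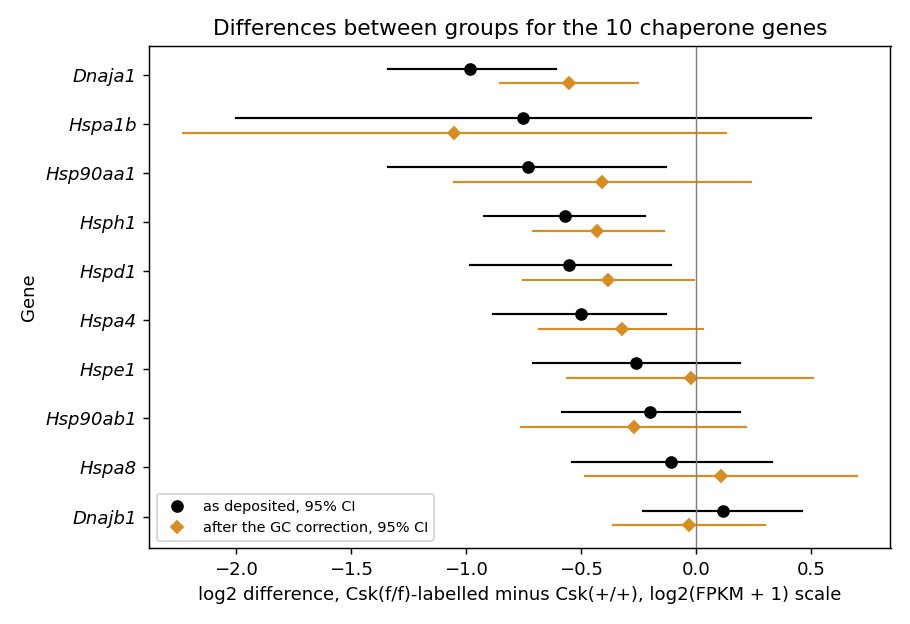
Log2 difference between the Csk(f/f)-labelled and Csk(+/+) libraries for each of the 10 genes on the log2(FPKM + 1) scale, with 95% confidence intervals from limma. Black circles are values as deposited and orange diamonds values after the GC correction. The intervals of Dnaja1, Hsph1 and Hspd1 lie below 0 in both, and those of Hspa4 and Hsp90aa1 only as deposited.

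Differences between the groups moved with the GC content of the transcript over the whole table. Across 10119 tested genes the Spearman correlation between the log2 difference and GC content was 0.71, as a description over genes that share the same 5 libraries. The longest transcripts of 7 of the 10 chaperone genes lay below the median GC content of 49.7%, from 41.2% for Dnaja1 to 47.3% for Hsph1, while Hsp90ab1 (51%), Dnajb1 (52.7%) and Hspa1b (58.1%) lay above it. A correction that subtracted the GC trend from each library moved the median log2 difference of the 10 genes to -0.35, with 9 of them negative. The log2 difference became -0.55 ± 0.13 (SE) for Dnaja1, -0.43 ± 0.12 for Hsph1, -0.38 ± 0.15 for Hspd1, -0.32 ± 0.15 for Hspa4 and -0.41 ± 0.27 for Hsp90aa1. Their adjusted p-values were 0.353, 0.416, 0.489, 0.535 and 0.675. Dnaja1, Hsph1 and Hspd1, 3 of the 10, were lower with an unadjusted p under 0.05, where 5.07% of all tested genes were lower and 4.89% higher. None of the 10 passed the adjusted threshold after the correction, and 0.0791% of all genes did. The abundant Hspa8 and Hspe1 came to 0.11 ± 0.25 and -0.02 ± 0.23, so the sign of Hspa8 turned. Hspa1b, with the highest GC content of the 10, moved the other way, to -1.05 ± 0.50. Hsp90ab1 and Dnajb1 did so too, to -0.27 ± 0.21 and -0.03 ± 0.14.

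**Figure D3:**
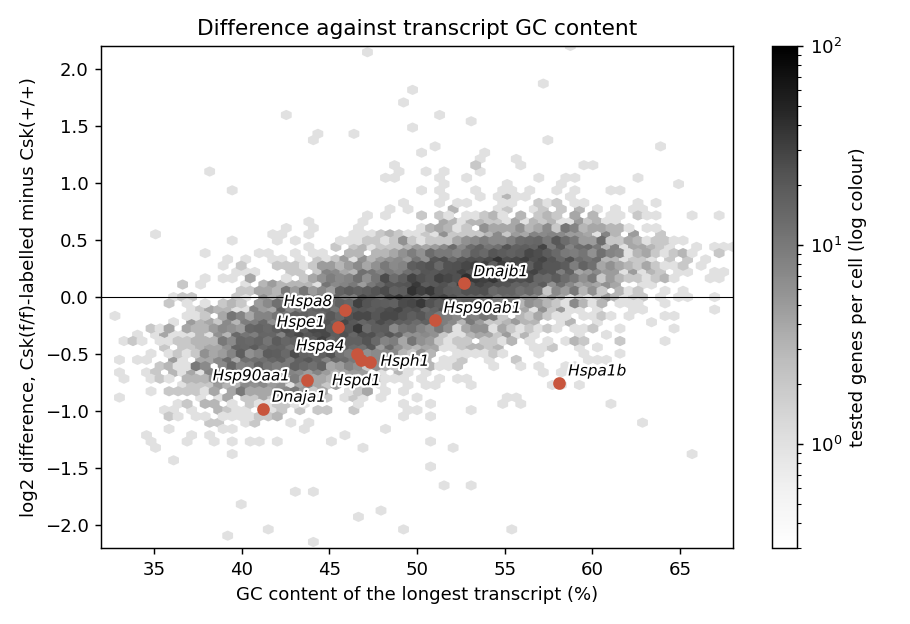
Log2 difference of each tested gene against the GC content of its longest transcript. Grey cells count genes on a log colour scale and red points are the 10 chaperone genes. Differences are higher at higher GC content, and Hspa1b lies below most genes of like GC content. A few genes with larger differences lie outside the axes.

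Leaving out Csk(+/+) replicate 3 changed which genes were called. Without it Hsph1 (log2 difference -0.63, adjusted p = 0.049) and Dnaja1 (-0.96, adjusted p = 0.0315) fell in the Csk(f/f)-labelled group, 2 of the 10 where 2.79% of all 10147 tested genes fell. Hspd1 (-0.67, adjusted p = 0.0505) and Hspa4 (-0.54, adjusted p = 0.069) did not pass. The log2 difference moved from -0.73 to -0.53 for Hsp90aa1, from -0.26 to -0.11 for Hspe1 and from -0.75 to -1.21 for Hspa1b, with adjusted p-values of 0.11, 0.586 and 0.0863. After GC correction without that library 0 of the 10 were called, and the median was -0.26.

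Ratios between related chaperones within a library do not depend on scaling between libraries, and 5 pairs were compared. The ratio of Dnaja1 to Dnajb1 was 0.908, 0.561 and 0.799 in the Csk(+/+) group and 0.335 and 0.334 in the Csk(f/f)-labelled group. The groups were separated, and the 2 lower values were nearly equal. The log2 ratio, of FPKM + 1, differed by -1.10 (2-sided exact permutation p = 0.1, the smallest that 3 against 2 libraries allow, 0.5 adjusted over the 5 pairs). After the GC correction the difference was -0.52 (exact permutation p = 0.2). The ratio of Hsp90aa1 to Hsp90ab1 was 0.112, 0.114 and 0.177 against 0.118 and 0.0683. Those groups overlapped, replicate 3 of Csk(+/+) being highest and replicate 2 of Csk(f/f) lowest (log2 difference -0.54, exact permutation p = 0.5). It was -0.14 after the GC correction, and ran from -0.93 without Csk(f/f) replicate 1 to -0.14 without Csk(f/f) replicate 2, with -0.32 without Csk(+/+) replicate 3. Hspe1 to Hspd1 stood at 1.74, 1.99 and 3.32 against 2.91 and 2.62, again overlapping (0.29, exact permutation p = 0.5, and 0.36 after the GC correction). With libraries left out that difference ran from 0.10 without Csk(+/+) replicate 1 to 0.56 without Csk(+/+) replicate 3. Hsph1 to Hspa4, the HSP110 pair, stood at 0.405, 0.418 and 0.389 against 0.335 and 0.438, with a log2 difference of -0.06 (exact permutation p = 0.8, and -0.10 after the GC correction). Its sign turned without Csk(f/f) replicate 1 (0.13). For Hspa1b over Hspa8, the inducible over the constitutive HSP70, the difference was -0.64 (exact permutation p = 0.7). Adjusted over the 5 pairs, these 4 exact permutation p-values were all 0.8. With Hspa1b near 1 FPKM that value depends on the pseudocount, and it rested on Csk(+/+) replicate 2, without which it was 0.01. After the GC correction it was -1.16.

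**Figure D4:**
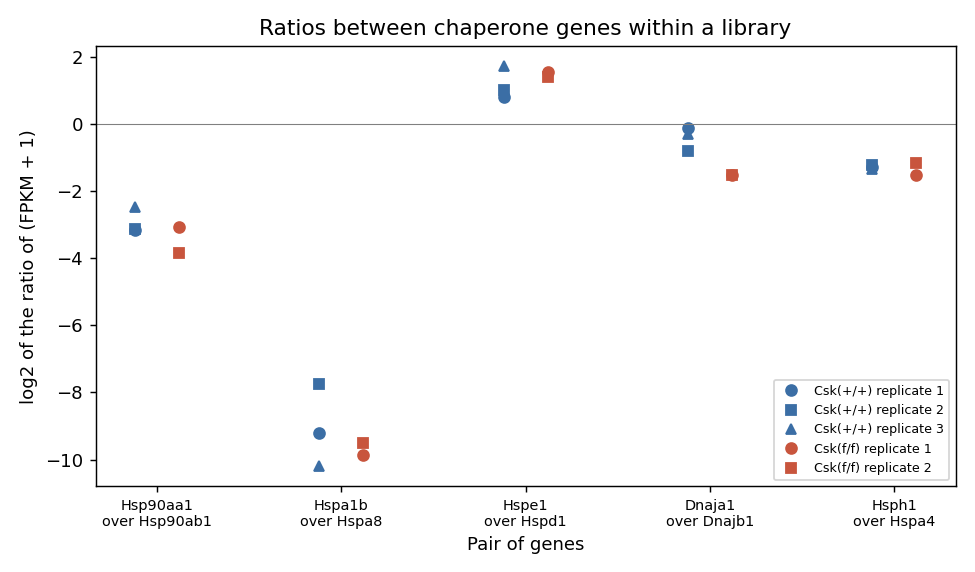
Log2 ratio of (FPKM + 1) between 5 pairs of chaperone genes in each library (blue Csk(+/+), red Csk(f/f)-labelled, with marker shape for the replicate number). The groups are separated for Dnaja1 over Dnajb1 and overlap for the other 4 pairs.

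Other chaperones and co-chaperones were read from lists of 102 genes, of which 89 were tested. Their median log2 difference was -0.05, with 52 negative, and by limma an unadjusted p under 0.05 was found for 23 lower and 8 higher genes. Over all tested genes 13.6% were lower and 8.07% higher at that p. After the GC correction the median of the 89 was -0.02, with 10 lower and 3 higher. The shares over all tested genes were then 5.07% and 4.89%. None of the 89 passed the adjusted threshold with all 5 libraries. Without Csk(+/+) replicate 3, 7 of the 89 fell at that threshold, 3 HSP90 co-chaperones, 2 J-domain genes, 1 prefoldin gene and 1 mitochondrial gene, beside the 2.79% of all tested genes given above. The HSP70 and HSP110 relatives had the lowest median of these lists (-0.41), all 5 tested genes being negative, and 4 of 5 after the GC correction. Hspa14, a ribosome-associated HSP70, had 70.2, 56.9 and 62.1 FPKM in the Csk(+/+) and 43.9 and 43 in the Csk(f/f)-labelled group, with no overlap (log2 difference -0.52, adjusted p = 0.155). The other 2 genes named from that list, Hspa2 and Hspa13, had log2 differences of -0.41 and -0.37. After the GC correction Hspa14, Hspa2 and Hspa13 were at -0.40, -0.59 and 0.09. Among 23 tested J-domain genes the median was -0.18, with 7 lower and 2 higher at that unadjusted p. After the GC correction the median was -0.05, with 4 lower and 1 higher. Dnaja2, another cytosolic J-domain protein of the same class as Dnaja1, had 65.2, 52.4 and 52.6 FPKM against 33.7 and 37.8 (-0.65, adjusted p = 0.154). Dnajc2, the partner of Hspa14 at the ribosome, and Dnajc21 had log2 differences of -0.91 and -1.03, both with an adjusted p of 0.154. After the GC correction Dnaja2, Dnajc2 and Dnajc21 were at -0.27, -0.51 and -0.64.

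Genes that regulate the chaperone cycle were mixed in sign. The 12 HSP70 cofactors had a median of -0.05, with Bag6 at 76 ± 6.55 and 103 ± 3.35 FPKM (0.44, adjusted p = 0.162), Hspbp1, an exchange factor, at 0.38 and St13, the HSP70-interacting protein HIP, at -0.38. After the GC correction those 3 were 0.12, 0.06 and 0.07. The 23 HSP90 co-chaperones had a median of 0.0036, with 7 lower and 2 higher genes having an unadjusted p under 0.05, and 1 and 0 after the GC correction. The shares over all tested genes were 13.6% lower and 8.07% higher, and 5.07% and 4.89% after the correction. Ptges3, the p23 protein that stabilizes client-bound HSP90, had 93.1, 84.6 and 75.2 FPKM against 58 and 54.9 (-0.57, adjusted p = 0.154). Rpap3 (-0.73) and Chordc1 (-0.84) were also lower in both Csk(f/f)-labelled libraries than in all others, with adjusted p-values of 0.148 and 0.154. After the GC correction Rpap3 was at -0.65, and Ptges3 and Chordc1 at -0.22 and -0.27.

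Medians of the lists of cytosolic chaperonin, prefoldin and mitochondrial folding genes ran from -0.24 to -0.02. The 8 subunits of the cytosolic chaperonin CCT, which folds actin and tubulin, had a median of -0.24 with 2 lower at an unadjusted p under 0.05, and 0.07 with 0 lower and 1 higher after the GC correction. The 3 named subunits Cct2, Cct6a and Cct4 had log2 differences of -0.32, -0.37 and -0.27. Of 6 tested prefoldin genes, whose products hand clients to CCT, 5 were negative and 3 of them had an unadjusted p under 0.05, and the median was -0.20. Vbp1 had 29.3, 21.1 and 33.3 FPKM against 14.4 and 11.8 (-1.02, adjusted p = 0.154), Pfdn4 was at -0.82 and Pfdn1 at -0.38. The 16 mitochondrial folding and protease genes had a median of -0.02. Clpx, the ATPase of a matrix protease, had 10.3, 8.56 and 9.05 FPKM against 5.14 and 4 (-0.89, adjusted p = 0.154), Yme1l1 was at -0.75 and Htra2 at 0.46. After the GC correction Cct2, Cct6a and Cct4 were at -0.17, -0.23 and -0.01, and Vbp1, Pfdn4 and Pfdn1 at -0.44, -0.35 and -0.44. Clpx, Yme1l1 and Htra2 were then at -0.61, -0.23 and 0.14. The corrected median was -0.21 for prefoldin genes, with 2 lower at that unadjusted p, and 0.07 for mitochondrial genes. Over all tested genes 13.6% were lower as deposited, and 5.07% lower and 4.89% higher after the correction.

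Among small heat shock protein and heat shock factor genes 5 of 11 were tested, with a median of 0.07 and 0 in either direction at an unadjusted p under 0.05. Hsf1, which encodes the factor that induces chaperone genes, had 22.4, 23.1 and 17.3 FPKM in the Csk(+/+) group and 25.2 and 25.3 in the others. The Csk(f/f)-labelled values were the 2 highest (log2 difference 0.27, adjusted p = 0.354, and 0.10 after the GC correction). Hspb6 and Hsbp1, an inhibitor of HSF1, were at 0.43 and 0.07.

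**Figure D5:**
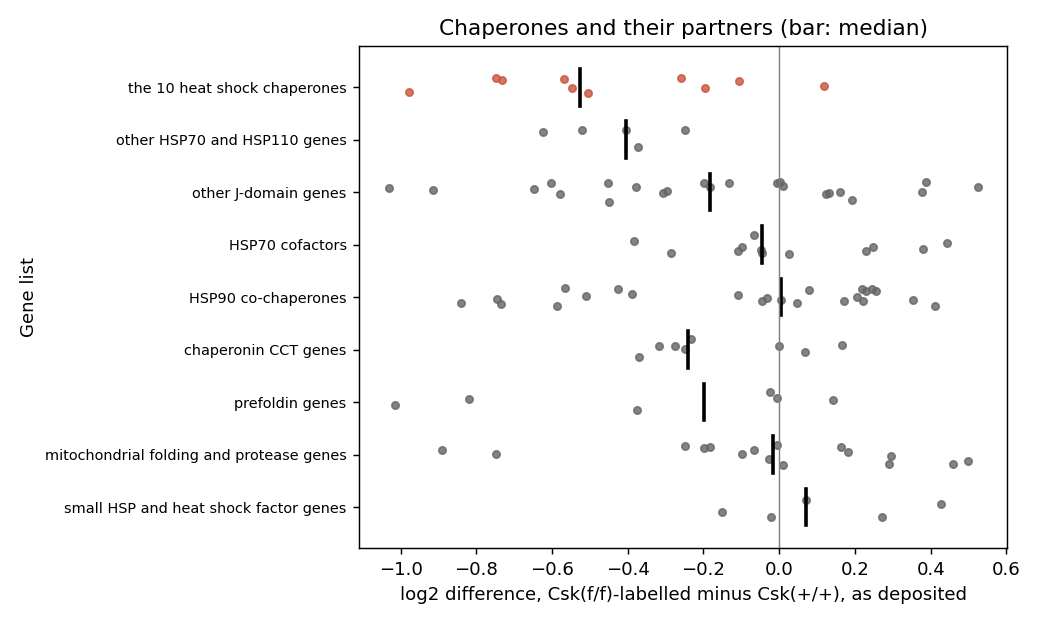
Log2 difference, as deposited, of each tested gene in the 10 heat shock chaperones (red) and 8 lists of other chaperones and co-chaperones (grey), with a bar at each list's median. Points are spread vertically for legibility. The median of the 10 genes is -0.53 and those of the other lists run from -0.41 to 0.07.

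Genes that respond quickly to handling and to activation were read beside the chaperones. Of 18 such genes 14 were tested, with a median log2 difference of 0.27, 3 higher and 0 lower genes with an unadjusted p under 0.05 (limma), and a median of 0.07 with 0 higher and 2 lower after the GC correction. Over all tested genes 8.07% were higher and 13.6% lower at that p, and 4.89% and 5.07% after the GC correction. Without Csk(+/+) replicate 3, the library in which the listed genes were lowest, the median was -0.02, with 7 of 14 negative, 3 higher and 1 lower. Of all 10147 genes tested without it, 5638 were negative, 1350 higher and 2174 lower. The summed FPKM of the 18 listed genes was 514, 524 and 397 in the Csk(+/+) group. It was 587 and 600 in the Csk(f/f)-labelled group, opposite in order to the sum of the chaperones. The most abundant of them, Jund, Junb and Zfp36, had log2 differences of 0.39, 0.40 and 0.60, and Socs3 was at 0.85. After the GC correction these were 0.03, 0.06, 0.40 and 0.54. Markers of the dark zone and of cycling cells moved with the chaperones. Their summed FPKM was 575, 596 and 653 in the Csk(+/+) group and 506 and 455 in the others. Of these markers 10 of 12 were negative, beside 51.3% of all tested genes, and the median was -0.39 (-0.45 after the GC correction). At an unadjusted p under 0.05, 6 of the 12 were lower, beside 13.6% of all tested genes. After the GC correction 5 were, beside 5.07%. Germinal centre B cell markers had a median of -0.32 with 6 of 7 negative (-0.02 and 5 of 7 after the GC correction), and light zone markers -0.03. Macrophage and neutrophil markers summed to 11.6 to 21.6 FPKM in the Csk(+/+) group and to 23.7 and 24.2 in the others. Most of that sum came from Lyz2 (6.56, 8.01 and 1.91 against 12.1 and 10.2 FPKM) and Cd68 (9.66, 12.8 and 9.53 against 11 and 13.1). Csf1r, Emr1 and Itgam reached at most 0.538 FPKM in any library. Dendritic and follicular dendritic markers summed to 20.2 to 27.9 over all libraries. S100a8 was listed at 0 in 4 of 5 libraries and Cxcl13 was listed at 0 in all. The part of cell cycling, sort composition and handling in the chaperone values was not tested.

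The mean profile of the 10 genes, each centred on its own mean on the log2 scale, was 0.22, 0.19 and 0.14 in the Csk(+/+) group and -0.22 and -0.33 in the Csk(f/f)-labelled group. Among 7389 other genes with a mean of at least 5 FPKM, the 5 closest to it over the 5 libraries were Fanci, Sesn3, Prps2, Ralgps2 and Recql, with root mean square distances from 0.0373 to 0.0384 log2 units. Single chaperones departed from that mean. Hspa8 and Hspe1 had their highest value in Csk(+/+) replicate 3, as Hsp90aa1 did, whereas Hsph1, Hspa4, Hspd1, Dnaja1 and Hsp90ab1 were highest in Csk(+/+) replicate 1 and Hspa1b and Dnajb1 in Csk(+/+) replicate 2.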

How the data were processed

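RNA from sorted cells was extracted in TRIzol and sequenced after NEBNext Ultra library preparation, per the labels' protocols. The authors deposited FPKM per gene, and the submitters' processing notes list TopHat2 2.0.8, Cufflinks 2.1.1 and the mm9 build. The gene annotation, strand use and scaling between libraries are not given in the sources used here. Columns of the 5 libraries were matched by title, and 1 repeated header line was left out.

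Genes with at least 1 FPKM in at least 2 of 5 libraries (10242) entered a limma 3.58.1 fit (R 4.3.3) of log2(FPKM + 1) (trended prior, Benjamini-Hochberg adjustment over all tested genes). Differences are Csk(f/f)-labelled minus Csk(+/+) on that scale, which understates changes of low genes. Pair ratios used an exact permutation test. For the GC correction, each library's deviations from the gene means were smoothed by lowess (span 0.3) against the GC content of the longest GENCODE transcript on GRCm38, matched by gene name, and the smooth was subtracted. Depth was estimated from the lowest FPKM steps of genes with transcripts of at least 1500 nt. The pipeline was tested on simulated data.

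The 10 genes and all lists were chosen with earlier results of these data known. Named from each other chaperone list are the 3 tested genes with the smallest p, from the immediate early list those and the 3 most abundant, and the 5 genes nearest to the mean profile. Alternatives were other pseudocounts, filters, scalings, variance models, library weights, a replicate block, corrections for GC content or transcript length, and each library left out.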

Additional observations from a re-analysis of the deposited data

How the results depend on the processing

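Of 187 results for single chaperone genes under the alternatives, 168 kept their direction and side of the threshold, 9 passed it in the same direction and 10 turned in sign. Hspa8 turned with the GC correction (0.11), with the replicate block (0.01), with both (0.28) and with the GC correction without Csk(+/+) replicate 3 (0.28), and ran from -0.17 to 0.01 with single libraries left out. Dnajb1 turned with the GC correction (-0.03), also with the block (-0.01) or without Csk(+/+) replicate 3 (-0.01), and Hspe1 turned in the last 2 of these (0.18 and 0.18). The log2 difference stayed negative under every alternative run for Hsph1 (-0.63 to -0.43), Dnaja1 (-1.07 to -0.52), Hspa4 (-0.67 to -0.30), Hspd1 (-0.67 to -0.37), Hsp90aa1 (-1.07 to -0.16) and Hsp90ab1 (-0.34 to -0.14). For Hspa1b it ran from -1.45 to -0.32 in the alternatives that could be run. Hspa1b was not tested with a filter at 5 FPKM or without Csk(+/+) replicate 1 or 2. Those replicates alone brought it into the test, so these alternatives cannot show its sign without either of them. The median of the 10 genes was -0.40 at a pseudocount of 5, -0.35 with the GC correction, -0.26 with that and the block, -0.26 with the GC correction without Csk(+/+) replicate 3, and from -0.57 to -0.37 with libraries left out. The count of the 10 at an unadjusted p under 0.05 was 3 with the GC correction, beside 5.07% lower and 4.89% higher over all tested genes. Without Csk(+/+) replicate 3 it was 6, all lower, where 2174 of all 10147 tested genes were lower and 1350 higher. It was 5 without Csk(+/+) replicate 1 or 2, and 4 lower and 1 higher after GC correction without Csk(+/+) replicate 3. The shares over all tested genes are not given for these fits.

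Over all genes, 8 passed as deposited, 5 without a filter, 671 with library weights, 492 with the replicate block, 162 with the GC correction and the block, 40 with the GC correction without Csk(+/+) replicate 3, and 5 to 411 with libraries left out (the most without Csk(+/+) replicate 3). Library weights called Hsph1, Dnaja1 and Hspd1 (adjusted p = 0.0392, 0.0209 and 0.0468). The replicate block leaves Csk(+/+) replicate 3 alone in its block. It called Hspa4, Dnaja1 and Hspd1 (adjusted p = 0.0484, 0.0387 and 0.0484), and with the GC correction Hspa1b alone (0.0421). The numbers do not pair the libraries as far as the labels say. Over 10242 genes, replicate 1 minus replicate 2 in Csk(+/+) had a correlation of -0.02 with the same difference in Csk(f/f). The ratio of Hspa1b to Hspa8 ran from -1.21 to 0.01 and that of Hsph1 to Hspa4 from -0.25 to 0.13 with libraries left out, both turning in sign. Without a Csk(f/f)-labelled library the remaining one is assumed to vary like the others. The causes of these shifts were not tested. Depth limits Hspa1b, with an estimated 15.6 to 30.6 fragments in 3 of the 5 libraries.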
